A study of Mus musculus with 3 samples.

Results

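The arginine metabolism genes described here are Arg1, Nos2, Slc7a2, Slc7a1, Ass1, Odc1 and Arg2, 7 of the 31053 genes counted, chosen by name and each found under exactly 1 gene identifier. These genes and the gene lists used below were chosen with earlier results of these data known. The 7 genes were followed in wound monocytes and macrophages of male mice of the inbred strain C57BL6/J, collected 3, 6 and 10 days after skin injury. The labels name no other genotype and no treatment, and the gates used to isolate the cells are not described in them. Each day had 1 droplet single-cell library from 2 pooled mice, and the variation from animal to animal could not be measured. No test was possible, and every comparison describes these 3 libraries, with intervals that cover counting error only. Library and day cannot be told apart.

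Arginine is used by enzymes that compete for it in macrophages. Arg1, the cytosolic arginase, and Arg2, the mitochondrial arginase, split it into urea and ornithine, and Odc1 (ornithine decarboxylase) turns ornithine into putrescine, the start of the polyamines. Nos2, the inducible nitric oxide synthase, converts arginine into nitric oxide and citrulline, from which Ass1 (argininosuccinate synthase) starts the rebuilding of arginine. Slc7a1 and Slc7a2 are cationic amino acid transporters of the plasma membrane that bring arginine into the cell. Arg1 is widely used as a marker of alternatively activated and repair-associated macrophages and Nos2 as a marker of macrophages activated by interferon gamma and microbial products, which is why their detection in the same cell was counted.

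The 3 libraries held 1472 (day 3), 1196 (day 6) and 2209 (day 10) barcodes with 11199361, 9273960 and 13972817 unique molecular identifiers (UMIs), the counted mRNA molecules. After filtering, 900, 598 and 1362 cells were kept, and clusters named monocyte/macrophage-like held 760, 437 and 1135 of them, with medians of 9962, 9050 and 7549 UMIs a cell. All 29 monocyte and macrophage markers were detected in each library's class. Clusters c2, c4 and c6 held most of the class at day 3, clusters c3, c5 and c7 at day 6, and clusters c1, c3, c7 and c8 at day 10. Cluster c1 took 401 of its 425 cells from day 10, and whether it is a cell type or a property of that library cannot be told apart. Days 6 and 10 shared 2 cell barcodes, and the other pairs of libraries shared 0. Markers of red blood cells and platelets summed to 2882 UMIs per 1000000 UMIs of the class (written CPM) in the day 6 class, against 73.6 and 41.8 CPM at days 3 and 10.

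In mm10, Arg1 lies on the minus strand at chr10:24915221-24927484 and Nos2 on the plus strand at chr11:78920787-78960254. The transporters lie at chr8:40862396-40922308 on the plus strand (Slc7a2) and chr5:148327410-148399904 on the minus strand (Slc7a1). Ass1 lies at chr2:31470207-31520672, Odc1 at chr12:17544794-17551505 and Arg2 at chr12:79130777-79156301, all on the plus strand. All 7 are protein coding, and a UMI count covers a whole gene without separating its exons or splice forms. The coordinates are from the GENCODE vM21 annotation. Exons of Slc7a2 share 635 bases with the opposite-strand gene Gm26584, and exons of Arg2 share 285 bases with opposite-strand Vti1b and 116 bases with Gm48780. The sources used here do not say whether counting used the strand, so reads from these overlaps cannot be told apart.

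The first question was how the members' levels differed between days. Arg1, Nos2 and Slc7a2 were higher at day 10 than at day 3, while Slc7a1, Ass1, Odc1 and Arg2 were lower by less than 1.5-fold. Of the 7 members, 3 were at least 1.5-fold higher and 0 at least 1.5-fold lower. That count of lower members depended on the processing. The lowest day 10 to day 3 ratios under an alternative were 0.484 for Arg2, 0.559 for Ass1, 0.608 for Slc7a1 and 0.659 for Odc1. Each of these is past 1.5-fold lower. Among all 10662 genes with at least 20 UMIs over both libraries, 26.3% were at least 1.5-fold higher and 11.3% at least 1.5-fold lower. The median log2 ratio over those genes was 0.17.

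Arg1 gave 8367 UMIs in the day 3 class, 8191 at day 6 and 35334 at day 10. Its summed level was 1113 CPM (95% counting interval 1089 to 1137) at day 3, 1841 CPM (1801 to 1881) at day 6 and 3935 CPM (3894 to 3976) at day 10. The level was thus higher at each later day, with intervals that did not overlap. Day 10 stood 3.53-fold (3.45 to 3.62) above day 3, day 6 1.65-fold (1.60 to 1.71) above day 3, and day 10 2.14-fold (2.09 to 2.19) above day 6. Without cluster c1, in which Arg1 was among the 10 leading genes, day 10 stood 2.01-fold above day 3 and 1.32-fold above day 6.

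Nos2 was rare at day 3. It gave 8 UMIs in 3 of 760 cells there, 48 UMIs in 23 of 437 cells at day 6 and 521 UMIs in 147 of 1135 cells at day 10. These sums were 1.06 CPM (0.460 to 2.10), 10.8 CPM (7.95 to 14.3) and 58.0 CPM (53.1 to 63.2), again ordered by day without overlap. Day 10 was 54.5-fold (27.5 to 127) above day 3 and 5.38-fold (4.0 to 7.39) above day 6, and day 6 was 10.1-fold (4.75 to 24.8) above day 3. The ratios to day 3 rest on 8 molecules. Leaving out the cell with the most Nos2 UMIs in each library gave 101-fold for day 10 and 17.3-fold for day 6, and the mean of CPM per cell gave 29.0-fold and 5.77-fold. Without cluster c1, day 10 stood 34.4-fold above day 3 and 3.55-fold above day 6.

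Slc7a2, the transporter that activated macrophages induce, was low at day 3 and at a higher level at both later days. It gave 27, 191 and 348 UMIs, or 3.59 CPM (2.37 to 5.23) at day 3, 42.9 CPM (37.1 to 49.5) at day 6 and 38.8 CPM (34.8 to 43.0) at day 10. Days 6 and 10 were 12.0-fold (7.96 to 18.6) and 10.8-fold (7.29 to 16.6) above day 3. Between days 6 and 10 the ratio was 0.903 (0.755 to 1.08), so these 2 libraries did not differ beyond counting error. Slc7a1, the transporter present in most cell types, stood at 14.5, 12.6 and 12.0 CPM, and every ratio between days had an interval that included 1.

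Ass1 stood at 103 CPM (95.5 to 110) at day 3, 66.3 CPM (58.9 to 74.3) at day 6 and 81.4 CPM (75.6 to 87.5) at day 10. Arg2 stood at 79.2 CPM (72.9 to 85.8), 50.8 CPM (44.4 to 57.9) and 55.6 CPM (50.8 to 60.7). Both were highest at day 3. Odc1 was highest at day 6, with 140 CPM (132 to 149), 171 CPM (159 to 184) and 108 CPM (101 to 115). Day 10 stood at 0.794 of the day 3 level for Ass1 (0.716 to 0.879), 0.702 for Arg2 (0.622 to 0.792) and 0.770 for Odc1 (0.705 to 0.841). Without cluster c1 the Ass1 ratio was 1.01. With no cell filter and barcodes outside the class included, Odc1 at day 6 stood at 0.905 of day 3 in place of 1.22. These orders thus depend on the cells included.

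Against day 3, the day 6 library had 3 members at least 1.5-fold higher (Arg1, Nos2 and Slc7a2) and 2 at least 1.5-fold lower (Ass1, 1.55-fold, and Arg2, 1.56-fold). The Arg1 call was lost under 5 alternatives, with ratios of 1.22 with no cell filter, 1.28 with up to 20% mitochondrial UMIs, 1.33 in all kept cells, 1.42 with TMM factors and 1.37 with median-of-ratios factors. Both alternatives to the cell filter also counted barcodes outside the monocyte/macrophage-like class, so filter and population changed together. The Arg2 call was lost as a mean of CPM per cell (ratio 0.795). The background over 10186 genes was 30% higher and 11.3% lower, with a median log2 ratio of 0.23. Scaling by TMM or median-of-ratios factors shifted all log2 ratios by -0.13 or -0.19 for day 10 against day 3 and by -0.22 or -0.27 for day 6 against day 3, and the direction of Arg1, Nos2 and Slc7a2 stayed the same. Against day 6, the day 10 library had 2 members higher (Arg1 and Nos2) and 1 lower (Odc1, 1.58-fold), where 6.99% of 10569 genes were higher and 11.2% lower. The Odc1 call was lost with no cell filter (ratio 0.729), with up to 20% mitochondrial UMIs (0.705), in all kept cells (0.685), without cluster c1 (0.698) and with TMM factors (0.672), and the Arg1 call without cluster c1.

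**Figure D1:**
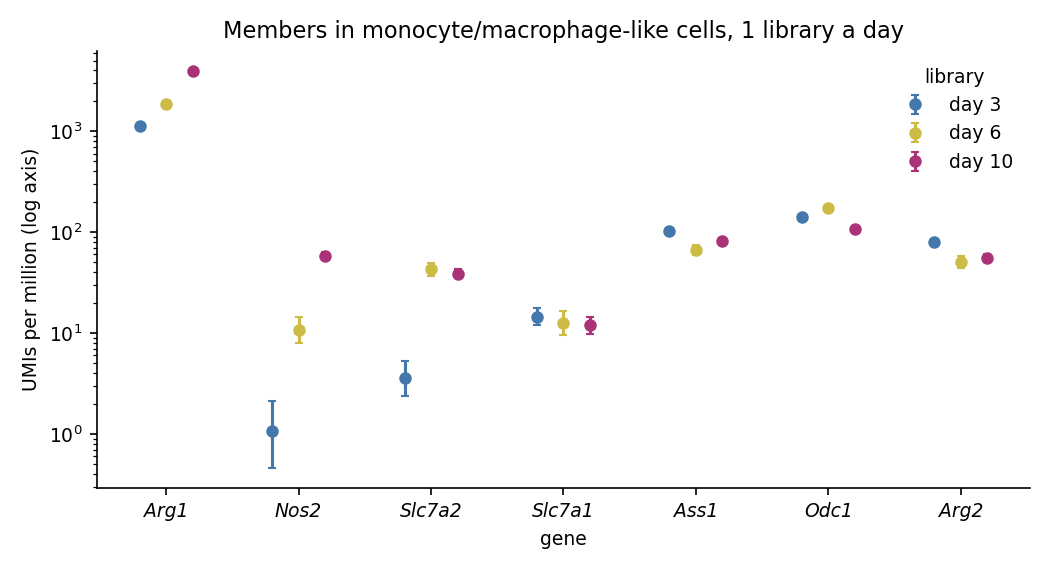
Summed UMIs per 1000000 (log axis) of the 7 members in monocyte/macrophage-like cells of the day 3, day 6 and day 10 libraries, with exact Poisson 95% intervals for counting error and 1 library a day. Arg1 and Nos2 are ordered by day, Slc7a2 is low only at day 3 (3.59 CPM), and the other 4 differ less; heights of different genes are not comparable because gene length is not accounted for.

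The other genes of the pathway were taken from 6 lists covering transport, the urea cycle and citrulline recycling, nitric oxide synthases and their cofactor tetrahydrobiopterin, polyamines, proline and glutamate synthesis, and creatine. Of 50 such genes, 39 had enough UMIs for day 10 against day 3, and 12 of them (30.8%) were at least 1.5-fold higher and 5 (12.8%) at least 1.5-fold lower, shares close to those of all genes. The creatine transporter Slc6a8 differed most among those at 20 CPM or more, with 6.65, 62.0 and 68.4 CPM at days 3, 6 and 10, or 10.3-fold (7.70 to 14.0) between day 10 and day 3. Gatm, which uses arginine to make the creatine precursor, was highest at day 6, with 8.25, 54.6 and 17.8 CPM. The 5 lower genes were Gch1, Smox, Slc7a7, Slc7a6 and Aldh18a1, the last 2 named to complete the count.

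Nitric oxide synthesis needs tetrahydrobiopterin. Gch1, the rate-limiting enzyme of its synthesis, stood at 149, 120 and 77.1 CPM at days 3, 6 and 10, the reverse of the order of Nos2. Day 10 stood at 0.519 of day 3 (0.471 to 0.571). Qdpr, which regenerates the cofactor, was higher at both later days, with 9.58, 40.7 and 24.7 CPM. Nos1 gave 1 UMI at day 3 and 0 on the other days, and Nos3 stayed between 0.899 and 1.34 CPM.

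The polyamine list had 16 genes, Odc1 included, all of them measured. At day 10, 5 were higher and 1 lower than at day 3, with a median log2 ratio of 0.07. Over all genes, 26.3% were higher and 11.3% lower, with a median of 0.17. Amd1 (S-adenosylmethionine decarboxylase) stood at 7.05, 11.9 and 14.1 CPM and Paox (polyamine oxidase) at 5.46, 31.9 and 14.1 CPM. Smox (spermine oxidase) was the lower gene, with 284, 105 and 128 CPM. Of the urea cycle list, Cps1, Otc and Nags, the mitochondrial entry enzymes, gave 0 UMIs in the class on every day. Ddah2, which breaks down the methylated arginines that inhibit nitric oxide synthases, stood at 3.73, 5.84 and 11.9 CPM.

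Known inducers of both enzymes were counted next. Of 10 factors and receptors known to raise Arg1, 0 were at least 1.5-fold higher and 1 was lower at day 10 than at day 3, Cebpb, with 3655, 2049 and 1793 CPM. Of 13 known to raise Nos2, 0 were higher and 7 lower, with a median log2 ratio of -0.68 against 0.17 over all genes. Among all genes 26.3% were higher and 11.3% lower. Myd88, the adaptor of toll-like receptors, was 2.33-fold (2.05 to 2.65) lower. Hif1a, on both lists, stood at 459, 347 and 569 CPM and was 1.64-fold above day 6 at day 10. Against day 3, the day 6 library had 2 of the 10 Arg1 factors higher (Pparg and Epas1) and 1 lower. Of the 13 Nos2 factors, 2 were higher (Irf1 and Tnf) and 4 lower. Tnf stood at 334 CPM at day 3 and 758 CPM at day 6. Over all genes, 30% were higher and 11.3% lower at day 6.

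Of 16 hypoxia response genes, 12 were at least 1.5-fold higher and 0 lower at day 10 than at day 3, with a median log2 ratio of 0.80. Over all genes, 26.3% were higher and 11.3% lower. Egln3, a prolyl hydroxylase that HIF induces, stood at 15.2, 35.1 and 156 CPM, and Bnip3, a mitophagy receptor, at 84.4, 189 and 495 CPM. A list of 13 genes held targets of the amino acid stress factor ATF4 and Atf4 itself. It gave 10 measured genes, of which 1 was higher (Trib3, with 3 UMIs at day 3) and 0 were lower.

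The second question was whether the days differed in how many cells carried Arg1 or in how much each carried. At day 3, 328 of 760 cells (43.2%, 39.6 to 46.8%) had an Arg1 UMI, at day 6 314 of 437 (71.9%, 67.4 to 76.0%) and at day 10 913 of 1135 (80.4%, 78.0 to 82.7%). With each cell thinned to 2000 UMIs, the shares were 35.2%, 56.4% and 73.6%. Thinning left out 21, 45 and 86 shallower cells. Dendritic-cell-like cells gave a background. They were deeper (medians of 16054, 17632 and 13572.5 UMIs), their unthinned Arg1 shares were 7.52%, 3.01% and 10.0%, and their thinned shares 0.752%, 0.763% and 1.60%.

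The median cell had 0 Arg1 CPM at day 3, 703 at day 6 and 3062 at day 10. Cells without Arg1 made up 56.8% of the class at day 3, 28.1% at day 6 and 19.6% at day 10. Cells above 1000 and up to 10000 CPM made up 26.4%, 41.6% and 57.4%, and those above 10000 CPM 1.32%, 2.75% and 9.16%. These values include the cells without Arg1. Among cells with an Arg1 UMI, the mean was 25.5 Arg1 UMIs a cell at day 3, 26.1 at day 6 and 38.7 at day 10. These means are not scaled for depth, and the class medians were 9962, 9050 and 7549 UMIs a cell. In counted UMIs, days 3 and 6 thus differed little per positive cell and more in the share of positive cells. Arg1 UMIs were less concentrated at day 10: 6.05% of the cells held 50% of the Arg1 UMIs at day 3, 8.92% at day 6 and 13.7% at day 10. Nos2 stayed concentrated, with 50% of its day 10 UMIs in 25 cells (2.20%).

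Arg1 differed widely between clusters, which are given by number and by leading genes. The clustering used Arg1 along with the other variable genes, so these values are a description. Among clusters with at least 50 cells in a library, cluster c1 (led by Mt2, Saa3 and Mt1) at day 10 had the highest Arg1 level, 7177 CPM, with Arg1 in 400 of 401 cells. Cluster c5 (led by Mmp12, Spp1 and Lpl) followed at day 10 with 4855 CPM, then cluster c7 (led by Gdf15, Il10 and Pmp22) at day 10 with 3523 CPM. At day 3 the highest Arg1 level was in cluster c4, led by the interferon-induced genes Cxcl10 and Rsad2, with 2774 CPM, and this cluster held 73.9% of that day's Arg1 UMIs. Cluster c2, led by the monocyte surface gene Ly6c2, had 500 CPM at day 3.

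Some monocyte/macrophage-like cells lacked Arg1 almost entirely. Cluster c6, led by Dmkn and Lcn2, had 2.12 CPM at day 3 (4 UMIs in 152 cells) and 6.18 CPM at day 10 (5 UMIs in 84 cells). That was near the level of the dendritic-cell-like cells, 7.23, 3.15 and 19.6 CPM at days 3, 6 and 10. The same cluster had 114 CPM (99.4 to 131) of Arg2 at day 3, a level that did not differ beyond counting error from that of cluster c4 (105 CPM, 92.4 to 120), and 18.6 CPM at day 10. Its Arg2 UMIs were 36.1% of the day 3 class total. In the dendritic-cell-like cells Arg2 stayed at or below 2.89 CPM and Slc7a2 gave 0 UMIs, whereas Ass1 stood at 94.5, 63.4 and 83.8 CPM there.

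Nos2 was concentrated in clusters c1 and c5. At day 10, cluster c1 held 58.5% of the Nos2 UMIs and cluster c5 37.0%, while they held 35.3% and 10.8% of the cells of the class. Their levels were 98.9 CPM (88.1 to 111 in c1) and 147 CPM (127 to 169 in c5). Cluster c7, next to c5 in Arg1 level at day 10, had 3.72 CPM of Nos2 from 3 UMIs in 1 of 148 cells. At day 6, 77.1% of the Nos2 UMIs were in cluster c5. The dendritic-cell-like cells gave 0 Nos2 UMIs at days 3 and 6 and 1 at day 10.

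**Figure D2:**
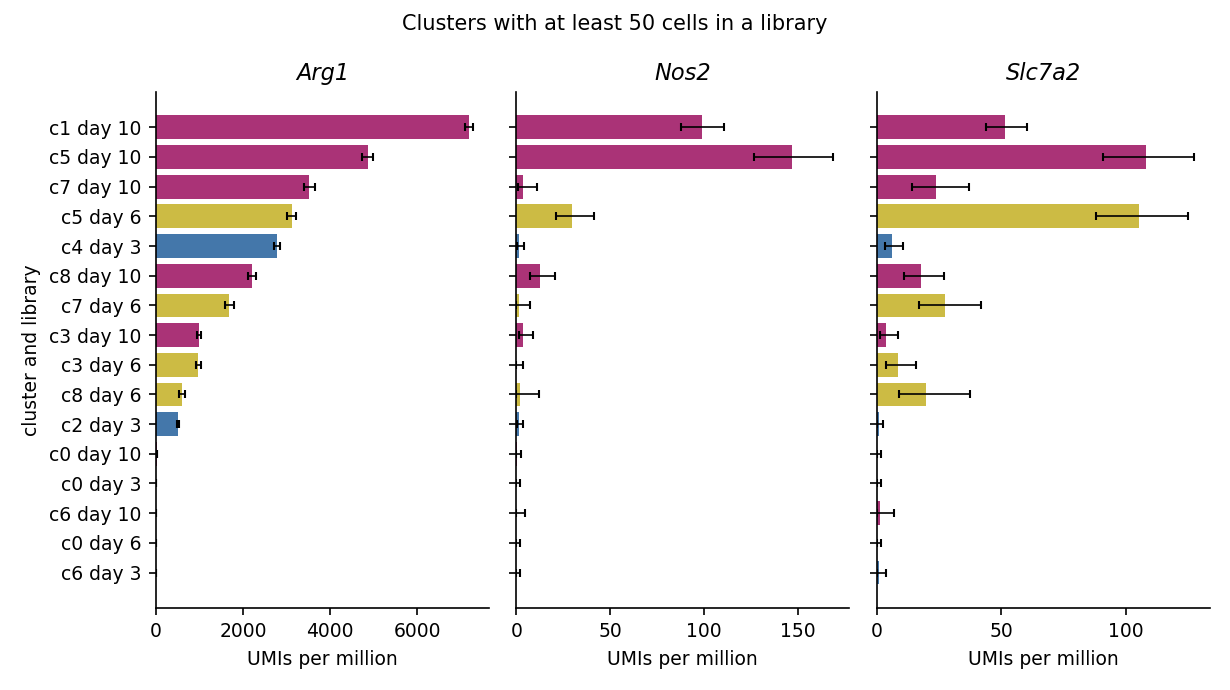
UMIs per 1000000 of Arg1, Nos2 and Slc7a2 in each cluster with at least 50 cells in a library, with exact Poisson 95% intervals; blue bars are day 3, yellow day 6 and purple day 10, sorted by Arg1, and each panel has its own linear axis. Clusters c1 and c5 lead at day 10 in Arg1 (7177 and 4855 CPM) and Nos2 (98.9 and 147 CPM), while c7 has Arg1 (3523 CPM) and little Nos2 (3.72 CPM).

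Within clusters with at least 20 cells in both libraries, Arg1 differed between days as well. In cluster c5 it stood at 1905 CPM at day 3, 3115 CPM at day 6 and 4855 CPM at day 10. Day 10 was 2.55-fold (2.29 to 2.84) above day 3 there, on 29 cells at day 3. In cluster c7 day 10 was 2.09-fold (1.95 to 2.23) above day 6, and in cluster c8 (led by Nr4a2 and Tmem119) 3.73-fold (3.29 to 4.25). Cluster c3, led by the complement gene C1qa, did not differ between these days beyond counting error, with 972 and 989 CPM at days 6 and 10 and a ratio of 1.02 (0.938 to 1.10). In cluster c2 the order was opposite, with 500, 162 and 8.01 CPM on 312, 22 and 31 cells.

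Nos2 within cluster c5 stood at 0 UMIs in 29 cells at day 3, 29.9 CPM at day 6 and 147 CPM at day 10. The day 10 to day 6 ratio was 4.91 (3.44 to 7.18). With the day 3 value set to 3 UMIs, the number that a count of 0 allows, the ratio of day 10 to day 3 was 9.38. Its exact interval started at 7.55. Slc7a2 in cluster c5 stood at 31.3, 105 and 108 CPM, and Ass1 at 209, 101 and 247 CPM, so Ass1 was 2.45-fold (1.98 to 3.03) higher at day 10 than at day 6. Odc1 was lower at day 10 than at day 6 in cluster c5 (0.608, 0.50 to 0.737) and in cluster c7 (0.568, 0.455 to 0.706). It was also lower in cluster c1 (0.195, 0.156 to 0.245, on 24 cells at day 6), while cluster c8 had the opposite order (1.40, 1.05 to 1.88).

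It was then asked whether Arg1 and Nos2 were found in the same cells. Most Nos2-positive cells at days 6 and 10 also had Arg1. At day 10, 144 cells had UMIs of both genes, 769 of Arg1 only, 3 of Nos2 only and 219 of neither. Arg1 was thus found in 98.0% (94.2 to 99.6%) of the 147 Nos2-positive cells and in 77.8% (75.1 to 80.4%) of the 988 Nos2-negative cells. At day 6, 21 cells had both, 293 Arg1 only, 2 Nos2 only and 121 neither, or 91.3% (72.0 to 98.9%) of the Nos2-positive and 70.8% (66.1 to 75.1%) of the Nos2-negative cells. At day 3, 2 cells had both, 326 Arg1 only, 1 Nos2 only and 431 neither.

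Cells with both were 12.7% (10.8 to 14.8%) of the day 10 class, 4.81% (3.00 to 7.25%) at day 6 and 0.263% (0.0319 to 0.947%) at day 3. Thinned to 2000 UMIs, they were 7.63% (6.09 to 9.40%), 1.28% and 0.135%, in the same order of days. At day 10 after thinning, Arg1 was found in 95.2% (88.2 to 98.7%) of the Nos2-positive and 71.7% (68.7 to 74.5%) of the Nos2-negative cells. Of the 133, 133 and 190 dendritic-cell-like cells of days 3, 6 and 10, 0 had both genes, with exact upper bounds of 2.74%, 2.74% and 1.92%. Of the 147 Nos2-positive cells of the day 10 class, Scrublet called 0 as doublets.

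Within clusters the overlap was close to the product of the separate shares. Over the whole day 10 class, 12.7% of cells had both, where the product of the Arg1 and Nos2 shares was 10.4%. Within cluster c1 the values were 22.7% (18.7 to 27.1%) and 22.6%, and within cluster c5 32.5% (24.4 to 41.6%) and 32.5%. Nearly all cells of both clusters had an Arg1 UMI, 99.8% in c1 and 95.1% in c5, which leaves little room for a difference in detection.

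**Figure D3:**
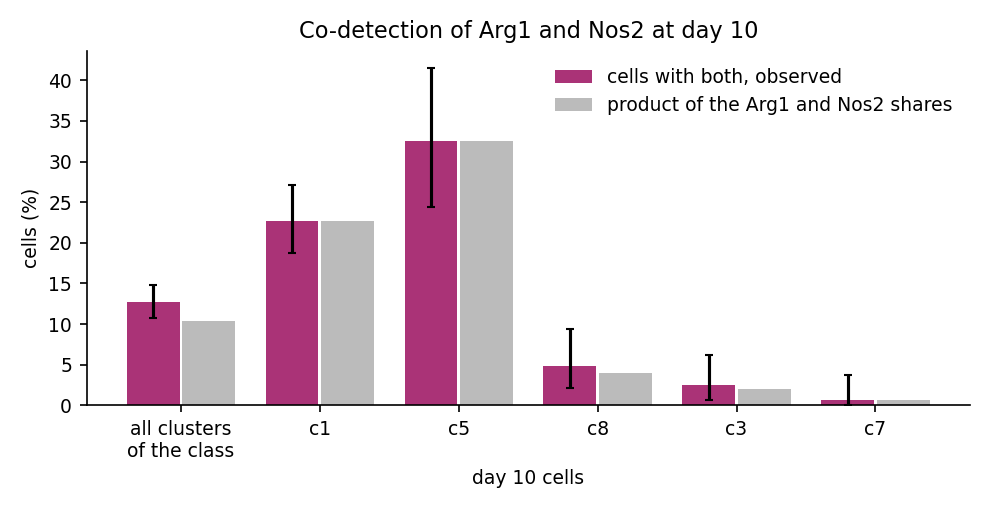
Share of day 10 cells with UMIs of both Arg1 and Nos2 (purple, exact binomial 95% intervals) beside the product of the separate Arg1 and Nos2 shares (grey), for the whole class and for 5 of its clusters, without thinning. The observed share exceeds the product over the class (12.7% against 10.4%) and equals it within clusters c1 and c5.

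The level of Arg1, as opposed to its detection, was higher in Nos2-positive cells. At day 10, Nos2-positive cells had 7741 CPM of Arg1 (7592 to 7892) and Nos2-negative cells 3273 CPM (3232 to 3313). Within cluster c1 the levels were 8933 CPM (8720 to 9149) in 91 Nos2-positive cells and 6612 CPM (6508 to 6717) in 310 Nos2-negative cells. Within cluster c5 they were 7362 CPM (7112 to 7619) in 42 cells and 3579 CPM (3455 to 3707) in 81 cells. At day 6 the levels over the class were 3646 CPM (3438 to 3864) and 1704 CPM (1665 to 1745). The Nos2-positive cells at day 10 were deeper (median 8551 UMIs against 7301), and the part of depth in these differences was not tested.

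Read the other way, Nos2 was found more often in cells with more Arg1. At day 10 a Nos2 UMI was seen in 1.35% (0.280 to 3.90%) of the 222 cells without Arg1 and in 1.45% (0.176 to 5.14%) of the 138 cells with 100 to 1000 Arg1 CPM. Of the 20 cells with some Arg1 but no more than 100 CPM, 0 had a Nos2 UMI (upper bound 16.8%). It was seen in 16.0% (13.2 to 19.0%) of the 651 cells with 1000 to 10000 CPM and in 36.5% (27.3 to 46.6%) of the 104 cells above that. The median depth of these groups was 8597 UMIs without Arg1, then 12733.5, 7324.5, 7065 and 6466 UMIs from the lowest to the highest Arg1 level, so the 2 groups with the most Nos2 were the shallowest. At day 6 the shares were 1.63% without Arg1, then 0%, 0.943%, 10.4% and 8.33%, the last from 12 cells.

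**Figure D4:**
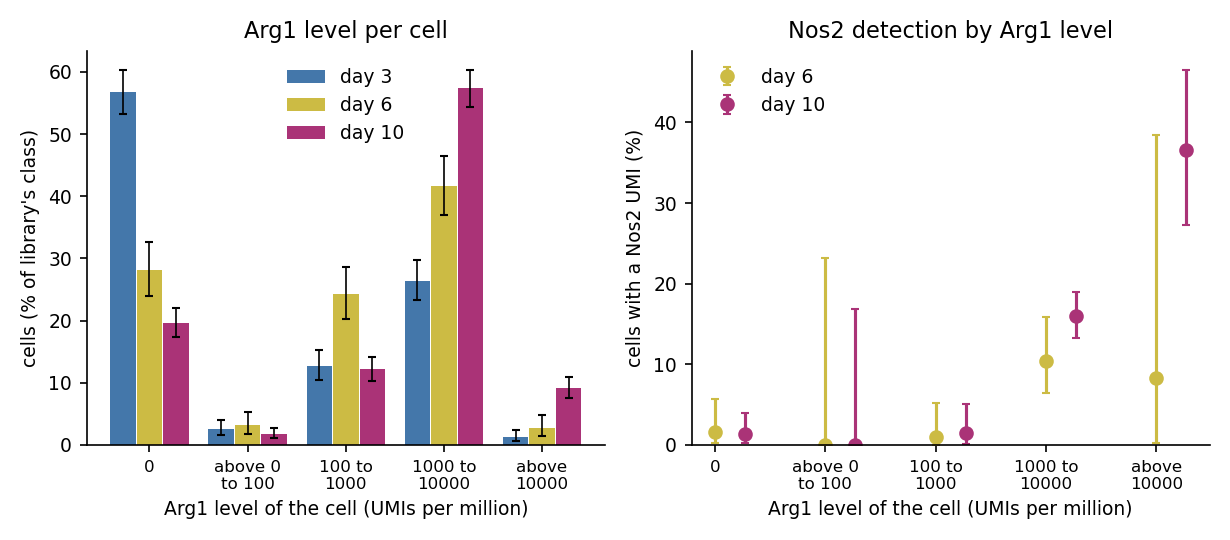
Left: share of each library's monocyte/macrophage-like cells by Arg1 level (UMIs per 1000000 in the cell). Right: share of cells with a Nos2 UMI at each Arg1 level, at days 6 and 10, with exact binomial 95% intervals on both sides. Cells at 1000 CPM and above make up more of the class at each later day, and the Nos2 share at day 10 reaches 36.5% above 10000 CPM.

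Slc7a2 was also more frequent in cells with either gene. At day 10 it was found in 45 of 147 Nos2-positive cells (30.6%, 23.3 to 38.7%) and 9.62% (7.85 to 11.6%) of the Nos2-negative cells. It was found in 14.9% (12.6 to 17.4%) of the Arg1-positive and 1.80% (0.493 to 4.55%) of the Arg1-negative cells. Thinned to 2000 UMIs, the Slc7a2 shares were 19.0% (11.3 to 29.1%) in Nos2-positive and 4.04% (2.89 to 5.48%) in Nos2-negative cells. The Slc7a1 shares overlapped in their intervals, with 8.84% and 7.49% before thinning and 3.57% and 1.97% after it. Odc1 was found in 33.8% (30.8 to 37.0%) of the Arg1-positive and 19.4% (14.4 to 25.2%) of the Arg1-negative cells at day 10, and Arg2 in 29.8% (26.8 to 32.9%) and 10.8% (7.05 to 15.7%). After thinning, the Odc1 shares were 16.2% (13.7 to 19.0%) and 10.5% (7.12 to 14.7%), with overlapping intervals, while those of Arg2 were 12.6% (10.3 to 15.1%) and 4.69% (2.52 to 7.89%). Slc7a2 by Arg1 gave 6.48% (4.85 to 8.45%) and 1.81% (0.589 to 4.16%) after thinning.

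Day 10 cells with both genes were then set against cells with Arg1 only, leaving Arg1 and Nos2 out. At least 1.5-fold higher in cells with both were 9 of 12 inflammatory genes, 8 of 16 hypoxia genes and the members Slc7a2, Arg2 and Ass1. The lists and members were chosen with earlier results of these data known, so these counts are a description. Over 9631 genes, 6.33% were at least 1.5-fold higher in cells with both and 22.5% at least 1.5-fold lower, with a median log2 ratio of -0.22. Cells with both had a median of 8548 UMIs and 2.62% mitochondrial UMIs, against 6780 UMIs and 3.70%. The groups were formed within 1 library by the detection of Nos2, so each ratio describes 144 and 769 cells of that library.

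Of the members, Slc7a2 stood at 102 CPM in cells with both and 34.1 CPM in cells with Arg1 only, a ratio of 2.99 (2.38 to 3.74). Arg2 stood at 113 and 54.0 CPM, 2.09-fold (1.70 to 2.55) higher, and Ass1 at 123 and 79.5 CPM, 1.55-fold (1.29 to 1.86) higher. Odc1 (0.813, 0.670 to 0.979) and Slc7a1 (0.964, 0.513 to 1.70) differed by less than 1.5-fold. Within cluster c1 these 3 members were also higher, Slc7a2 3.39-fold, Arg2 1.71-fold and Ass1 1.81-fold. Slc7a1 was sparse and its direction differed between groups of cells, with ratios of 1.69 (0.764 to 3.57) within cluster c1, 0.297 (0.0566 to 1.003) within cluster c5 and 1.57 (0.399 to 4.54) at day 6. Each of these was past 1.5-fold, on 12, 3 and 4 UMIs in cells with both, and each interval included 1. Within cluster c5 Arg2 was 2.90-fold (1.75 to 4.88) higher, while Slc7a2 had a ratio of 1.15 (0.786 to 1.67) and Ass1 of 0.949 (0.740 to 1.21). At day 6, on 21 cells with both, Arg2 was 2.16-fold and Ass1 2.04-fold higher, and Slc7a2 had a ratio of 0.610 (0.273 to 1.19).

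Of 12 measured inflammatory genes, 9 were at least 1.5-fold higher and 2 lower in cells with both, with a median log2 ratio of 1.28. Ptges, the prostaglandin E synthase, was 6.25-fold (5.06 to 7.74) higher, at 165 against 26.4 CPM. The cytokine gene Il1a was 5.08-fold (4.41 to 5.84) higher and the neutrophil chemokine gene Cxcl3 4.32-fold (4.10 to 4.56) higher. The 2 lower genes were the chemokine genes Cxcl10, at 25.4 against 86.4 CPM, and Ccl5, at 0 against 49.0 CPM. Within cluster c1, 9 of 11 were higher and 0 lower, and within cluster c5 7 of 10 were higher and 1 lower. The background was 6.33% higher and 22.5% lower over the class, 7.71% and 16.4% in c1, and 8.72% and 22.5% in c5.

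Of 16 hypoxia genes, 8 were higher and 0 lower, with a median log2 ratio of 0.59. Among all genes 6.33% were higher and 22.5% lower. Adm, which encodes a vasodilator peptide, stood at 67.9 against 18.3 CPM (3.70-fold, 2.76 to 4.95) and Ero1l, an oxidase of the endoplasmic reticulum, at 741 against 247 CPM. Within cluster c1, whose leading genes include Bnip3 and Egln3, 6 of 16 were higher, and within cluster c5 9 of 15 were higher and 1 lower. Of 13 alternative activation genes, 0 were higher and 8 lower, with a median log2 ratio of -0.68. Within cluster c1, 1 of 10 was higher (Chil3) and 1 lower (Mrc1), and within cluster c5 0 of 6 were higher and 1 lower (Cd36). Mrc1 is named to complete that count. The median log2 ratio of the alternative activation list was -0.14 in c1 and 0.01 in c5, against -0.11 and -0.16 over all genes. At day 6 it was -0.04 against -0.09. At day 6, 6 inflammatory genes were higher and 4 lower of 12, and 10 hypoxia genes were higher and 1 lower of 15, against 13.4% higher and 20.5% lower over 8310 genes.

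Outside the lists, the largest ratios at 100 CPM or more were those of Slpi, a secreted protease inhibitor (710 against 104 CPM, 6.84-fold), Inhba, the activin A subunit (339 against 50.5 CPM, 6.71-fold), and Mmp8, a collagenase (110 against 19.5 CPM, 5.61-fold). In cluster c1 alone Slpi was 4.50-fold and Mmp8 4.16-fold higher. The smallest ratios were those of the class II genes H2-Eb1 and H2-Aa, 4.20-fold (3.58 to 4.96) and 3.62-fold (3.15 to 4.17) lower, and of Aif1, Ccr2, Ccl7, Ccl8 and Cd74. H2-Eb1 was 1.81-fold (1.27 to 2.62) lower within cluster c1 and 48.8-fold (23.5 to 122) lower within cluster c5. Cd74 was 2.84-fold lower in the class, with a ratio of 0.987 (0.855 to 1.14) within cluster c1 and 0.0699 (0.0552 to 0.0874) within cluster c5. The chemokine receptor gene Ccr2 was 3.23-fold lower in the class. Its ratio was 1.10 (0.813 to 1.46) within cluster c1 and 0.295 (0.156 to 0.521) within cluster c5.

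Neutrophil markers summed to 325 CPM in cells with both and 137 CPM in cells with Arg1 only. This sum came mainly from S100a8 (169 against 75.1 CPM) and from Mmp8, while Ly6g and Ngp gave 0 UMIs in both groups, and 4 and 3 of the 10 markers were at 0. The list for natural killer and innate lymphoid cells summed to 244 and 97.2 CPM, of which Il7r alone gave 243 and 93.7 CPM, with Ncr1 and Nkg7 at 0 UMIs in both groups. The part of other cells in these differences was not tested.

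**Figure D5:**
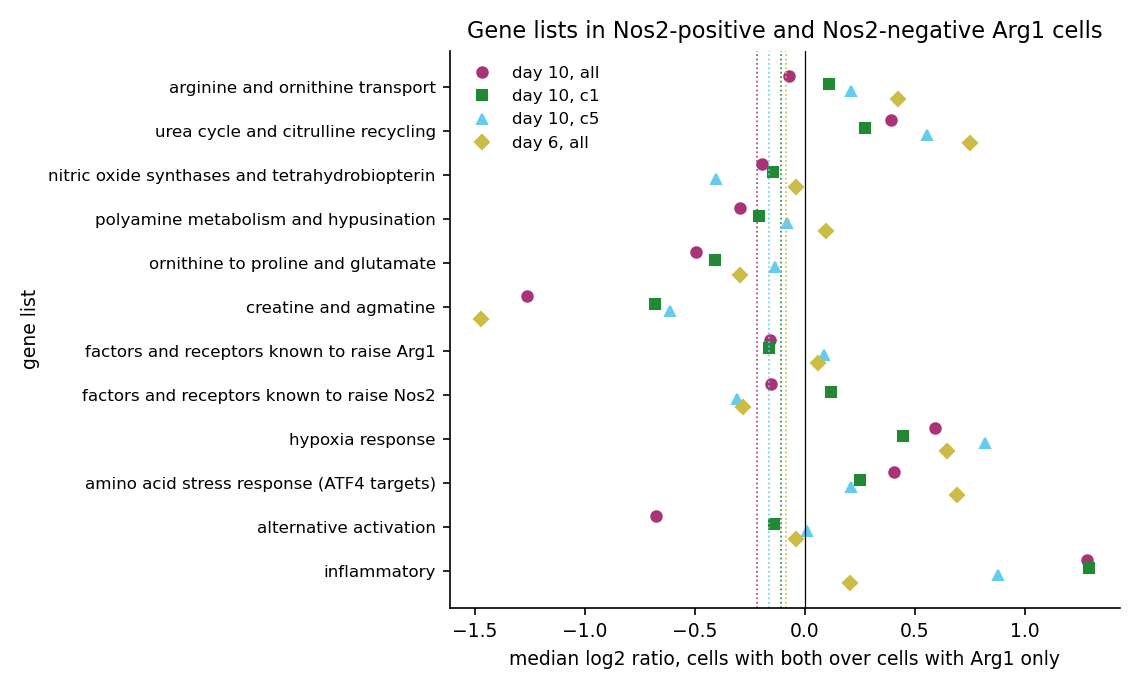
Median log2 ratio of each gene list between cells with both Arg1 and Nos2 and cells with Arg1 only, over the day 10 class, within clusters c1 and c5, and over the day 6 class; dotted lines mark the median of all genes of each comparison in the same colour. The inflammatory list lies at 1.28 over the day 10 class and 1.29 in c1, and the hypoxia list lies above the dotted lines in all 4 comparisons. The alternative activation list lies at -0.68 over the day 10 class, but at -0.14 in c1, 0.01 in c5 and -0.04 over the day 6 class.

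Likeness to Arg1 and to Nos2 was described over 16 cluster-by-library units with at least 50 cells, as Pearson's r of log2(CPM + 10) among 2269 genes. These units include the dendritic-cell-like cluster c0 of each library. They share libraries and were formed by clustering on many of the same genes, so the values carry no test. The 8 genes most like Arg1 were Sash1 (r = 0.976), Emp1, Tpi1, Pdpn, Abca1, P4ha1, Mif and Slc7a8 (r = 0.948). The 8 most like Nos2 were Vdac1 (r = 0.875), Ptges, Higd1a, Tnfrsf9, Gpi1, Sdc1, Slc7a2 (r = 0.828) and Fam162a. No gene was on both lists. Arg1 and Nos2 themselves had r = 0.598, which placed Nos2 at rank 574 of 2269 in likeness to Arg1. Read the other way, Arg1 was at rank 116 in likeness to Nos2. Slc7a2 had r = 0.762 with Arg1, Odc1 0.727 and Arg2 0.605, while Slc7a1 had r = -0.21 with Arg1 and -0.07 with Nos2.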

How the data were processed

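Droplet single-cell libraries (10x Genomics) of wound cells from days 3, 6 and 10, 1 library a day from 2 pooled mice, were used as deposited. The deposited matrices hold UMI counts per gene and barcode, not normalized; the processing used Cell Ranger 3.0.2 and mm10, per the submitters' processing notes. The annotation release behind the counts is not stated there.

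Barcodes with at least 200 genes and under 10% mitochondrial UMIs were kept, clustered (scanpy 1.11.5, 2000 variable genes, 30 principal components, 15 neighbours, leidenalg 0.10.2 at resolution 0.8) and named from markers. Scrublet doublets (13, 5 and 6 cells) were kept. Counts were summed over the monocyte/macrophage-like cells of a library and divided by their total to give CPM. Intervals at 95% are exact Poisson for levels, exact conditional binomial for ratios and Clopper-Pearson for shares. They cover counting error only. A gene counted as measured when the groups compared held 20 or more of its UMIs in all, and 1.5-fold was the size at which it was counted as higher or lower. A sum of 0 was set to 3 UMIs for a bound. Shares were also computed after thinning each cell to 2000 UMIs. Ratios used scipy 1.17.1, and edgeR 4.0.16 gave only the TMM factors. The ratio calls, the thinning and the ratio intervals were tested on simulated counts. Filtering, clustering, naming of clusters and co-detection were not.

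The members and gene lists were chosen with earlier results of these data known. Named genes were the 7 members and, of each list, the 2 highest and 2 lowest by the day 10 to day 3 ratio at 20 CPM or more, with any list gene past 2-fold between days. Also named were the 8 genes most like Arg1 and the 8 most like Nos2, and the 10 highest and 10 lowest by ratio between cells with both and cells with Arg1 only, at 100 CPM or more. Genes named outside this rule are said to complete a count or were chosen after their values were seen, as were the marker genes of other cell types. Alternatives covered cell filters, population, doublets, clustering resolution, scaling, weighting of cells, thinning depth, the UMI threshold and the fold. Some genes that meet the rule for named genes are not reported here.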

Additional observations from a re-analysis of the deposited data

How the results depend on the processing

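No alternative turned the direction of a ratio past 1.5-fold, but the 1.5-fold calls of Arg1 and Arg2 between days 6 and 3 and of Arg1 and Odc1 between days 10 and 6 were lost under some, as given beside those calls. Other calls were gained under some alternatives. Between days 10 and 3, Arg2, Ass1, Slc7a1 and Odc1 each passed 1.5-fold lower. Between days 10 and 6, the Ass1 ratio reached 1.53. Smaller ratios of Slc7a2, Slc7a1, Ass1, Odc1 and Arg2 crossed 1 in places, among them Arg2 between days 10 and 6, 0.801 without cluster c1 against 1.09. The Arg1 ratio of day 10 to day 3, 3.53 as reported, was 3.24 with no cell filter, 3.26 with up to 20% mitochondrial UMIs, 3.42 in all kept cells, 2.01 without cluster c1, 3.22 with TMM factors, 3.10 with median-of-ratios factors and 3.28 as a mean of CPM per cell. Both alternatives to the cell filter also counted barcodes outside the monocyte/macrophage-like class. The share of day 10 cells with both genes, 7.63% at 2000 UMIs, was 4.59% at 1000, 9.83% at 4000 and 12.7% unthinned. Among Nos2-positive cells, the Arg1 share of 95.2% was 98.0% unthinned, and 98.9% unthinned with 2 UMIs required. Among Nos2-negative cells, 71.7% became 67.9% at 1000 UMIs, 77.8% unthinned and 58.8% in all kept cells, a population that adds the dendritic-cell-like cells. The 5 other pathway genes lower at day 10 than at day 3 became 3 with at least 100 UMIs and 1 at 2-fold. The Nos2 ratio of day 10 to day 3 ranged from 29.0 to 101. An average over all thinning draws, chosen after seeing the data, gave 6.92% with both. Among all ratios of members, 173 values stayed within the reported interval and 58 moved beyond it. Except where an alternative changes the cells or the depth counted, the cause was not tested. No paired analysis was possible because each day has 1 library. For the same reason no library could be left out. Counts of 8 Nos2 UMIs at day 3 and 21 cells with both genes at day 6 limit what could be compared there.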

Other observations

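The creatine list was also compared between cells with both Arg1 and Nos2 and cells with Arg1 only. At day 10, 3 of its 4 measured genes were at least 1.5-fold lower and 0 higher, where 22.5% of all genes were lower, with a median log2 ratio of -1.26 against -0.22 over all genes. The lower genes were Gatm and Gamt, the enzymes of creatine synthesis, and Ckb, a creatine kinase. Gamt had an interval that included 1 (ratio 0.630, 0.332 to 1.11), and the transporter gene Slc6a8 had a ratio of 1.40 (1.15 to 1.69). The same 3 were lower at day 6, on 2, 1 and 7 UMIs of Gatm, Gamt and Ckb in cells with both, where the interval of Gamt again included 1. Within cluster c1, Gatm (ratio 0.485, 0.148 to 1.25) and Ckb were past 1.5-fold lower, while Gamt had a ratio of 0.805 (0.296 to 1.89). Within cluster c5 only 2 genes were measured, with Slc6a8 higher and Ckb lower. Of all genes, 20.5% were lower at day 6, 16.4% in cluster c1 and 22.5% in cluster c5.

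The ATF4 target list gave 3 of 7 genes at least 1.5-fold higher and 0 lower in day 10 cells with both genes. They were Mthfd2, Slc7a11 and Slc7a5, and the median log2 ratio of the list was 0.41. Of all genes, 6.33% were higher and 22.5% lower. Mthfd2 encodes a mitochondrial folate enzyme, Slc7a11 the cystine and glutamate exchanger and Slc7a5 a large neutral amino acid transporter. Within cluster c1 the same 3 were higher, and within cluster c5 0 of 4 were, where 7.71% and 8.72% of all genes were higher.

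The barcodes outside the filters, 572, 598 and 847 at days 3, 6 and 10, held Arg1 at 549, 489 and 810 CPM. They gave 0, 1 and 4 Nos2 UMIs. Arg1 thus had the highest level at day 10 in these barcodes as well, below its level in the kept cells of the class on every day. In the 9 cells of the endothelial-like cluster, Arg1 gave 254 UMIs in 5 cells.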
